A study of Mus musculus with 4 samples.

Results

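The cells described here are early erythroid cells of the tibia that carry little haemoglobin RNA: 115 cell barcodes of a droplet single-cell RNA library. They were chosen from raw UMI counts (unique molecular identifiers, each standing for 1 captured transcript). A member had at least 1000 UMIs and at least 200 genes, with at most 15% mitochondrial UMIs. It had at least 3 UMIs of Klf1 and Gata1 together, at least 1 of them Klf1, and under 20% of its UMIs from the adult globin genes Hba-a1, Hba-a2, Hbb-bs and Hbb-bt. Barcodes with 5% or more of S100a8 and S100a9, more than 3 UMIs of Cd79a and Cd79b or more than 4 of C1qa, C1qb and C1qc were left out. Of 15014 barcodes in the library, 11980 passed the depth, gene and mitochondrial limits, and the 115 members were 0.960% of these (exact Clopper-Pearson 95% interval 0.793 to 1.15, counting error only).

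Mice were 8 weeks old, and tibia (its proximal and distal ends) was the tissue. Cells were freed with dispase, collagenase and trypsin. The 4 sample records carry a single genotype, Col10a1Cre with the Rosa26-Tdtomato reporter, Irx3 +/Δ and Irx5 +/-, which the labels name the Irx3/5 heterozygous control, and their titles say noPTH. The Cre is driven by Col10a1, a gene of hypertrophic chondrocytes, and Irx3 and Irx5 are homeobox genes. The records were pooled in 1 matrix with 1 barcode suffix, so there is 1 library with no replicates and no second genotype. No test was possible, and all intervals below cover counting error only.

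Red cells arise in the marrow from multipotent progenitors that pass through burst-forming and colony-forming stages before they become haemoglobin-filled erythroblasts. Early on, Gata2 gives way to Gata1, the stem cell factor receptor Kit is lost, and erythropoietin acting on its receptor Epor keeps the cells alive. Klf1 and Gata1 together switch on the genes for haem, the membrane skeleton and globin. After a few rapid divisions the cells shrink, condense and expel the nucleus, and the reticulocyte then clears its ribosomes and mitochondria.

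Klf1 lies at chr8:84901982-84905291 and Gata1 at chrX:7959260-7976663 in the mouse GRCm38 assembly (mm10). The RefSeq start-site windows (GRCm38.p6, 250 bases before and 50 after the start) of 6 genes that the results turn on are given 5′ to 3′ on the gene's strand. They are the pair of factors that chose the members, the erythropoietin receptor, the enzymes that open and continue haem synthesis in red cells, and Hemgn, an erythroid nuclear protein. Capitals mark AGATAA, a form of the core bound by GATA factors, and CCNCNCCC, the core bound by Klf1-type factors, on either strand, with overlapping matches counted apart. Other forms of the GATA core were not marked.
Klf1 (chr8:84901732-84902031, plus strand): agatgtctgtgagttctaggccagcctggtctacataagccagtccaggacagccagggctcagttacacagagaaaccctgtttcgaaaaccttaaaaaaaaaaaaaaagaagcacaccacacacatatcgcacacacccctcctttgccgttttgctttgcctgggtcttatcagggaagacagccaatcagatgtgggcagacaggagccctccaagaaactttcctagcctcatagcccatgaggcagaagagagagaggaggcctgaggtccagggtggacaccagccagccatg
Gata1 (chrX:7967861-7968160, minus strand): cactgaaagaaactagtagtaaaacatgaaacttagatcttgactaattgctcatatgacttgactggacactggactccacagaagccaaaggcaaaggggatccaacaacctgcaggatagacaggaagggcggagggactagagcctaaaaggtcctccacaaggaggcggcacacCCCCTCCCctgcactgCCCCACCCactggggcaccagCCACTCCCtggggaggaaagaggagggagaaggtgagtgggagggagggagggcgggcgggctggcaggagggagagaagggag
Epor (chr9:21963527-21963826, minus strand): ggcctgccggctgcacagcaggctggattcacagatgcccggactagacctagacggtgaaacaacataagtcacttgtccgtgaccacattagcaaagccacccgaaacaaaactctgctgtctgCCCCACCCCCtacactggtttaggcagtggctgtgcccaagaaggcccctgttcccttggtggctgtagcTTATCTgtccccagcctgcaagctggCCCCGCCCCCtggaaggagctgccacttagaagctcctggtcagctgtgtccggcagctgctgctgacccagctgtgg
Alas2 (chrX:150547167-150547466, plus strand): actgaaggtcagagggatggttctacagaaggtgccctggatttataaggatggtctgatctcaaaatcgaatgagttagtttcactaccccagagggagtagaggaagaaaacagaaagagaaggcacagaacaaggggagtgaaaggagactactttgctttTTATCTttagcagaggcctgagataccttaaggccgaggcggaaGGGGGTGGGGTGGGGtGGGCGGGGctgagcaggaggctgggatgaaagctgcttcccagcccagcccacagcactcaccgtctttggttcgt
Cpox (chr16:58669958-58670257, plus strand): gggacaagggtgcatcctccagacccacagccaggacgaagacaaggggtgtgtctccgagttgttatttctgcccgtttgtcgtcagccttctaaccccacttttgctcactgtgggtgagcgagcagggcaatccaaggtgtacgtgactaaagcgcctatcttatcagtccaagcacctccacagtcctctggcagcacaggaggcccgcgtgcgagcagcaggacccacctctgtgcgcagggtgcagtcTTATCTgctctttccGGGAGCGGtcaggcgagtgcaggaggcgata
Hemgn (chr4:46404134-46404433, minus strand): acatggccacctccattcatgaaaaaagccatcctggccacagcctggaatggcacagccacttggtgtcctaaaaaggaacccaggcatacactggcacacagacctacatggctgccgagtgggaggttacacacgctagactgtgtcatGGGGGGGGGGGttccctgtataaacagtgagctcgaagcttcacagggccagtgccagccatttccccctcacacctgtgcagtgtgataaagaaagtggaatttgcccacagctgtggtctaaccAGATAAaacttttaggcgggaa

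The window of Epor held 1 AGATAA, 54 bases before the start, and 4 CCNCNCCC, and that of Alas2 held 1 AGATAA, 86 bases before the start, and 4 CCNCNCCC. Hemgn had 1 AGATAA and 4 overlapping CCNCNCCC, and Cpox had 1 of each. Gata1 had 3 CCNCNCCC and no AGATAA, and the Klf1 window held neither in these letters. Over all 32851 RefSeq windows of 300 bases, 11.2% held AGATAA, 49.5% held CCNCNCCC and 3.45% held both. By list, AGATAA was in 4 of 31 windows of erythroid factors, 2 of 22 of haem synthesis, 3 of 26 of receptors, 4 of 16 of the membrane skeleton, 1 of 25 of S phase, 2 of 23 of mitosis and 0 of 19 of ribosome biogenesis. Alas2 and Cpox, shown here, are the 2 haem synthesis windows that held it. A match describes these letters and is not a binding site.

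Members were deep, with 1034 to 80413 UMIs per cell (median 16040) and a median of 3538 genes. They were set beside 3 other sets of the same library that share the same depth limits. The 134 progenitors had at least 2 UMIs of Kit and Cd34 together, failed the Klf1 and Gata1 limits, and had under 1% of Mpo, Elane, Prtn3 and Ctsg (median 15986 UMIs). The 235 erythroblasts met the member rule but had 20 to 75% globin UMIs (median 8691 UMIs). The 825 late erythroid barcodes had over 75% (median 6190 UMIs and 273 genes). They were not held to the Klf1 and Gata1, S100a8 and S100a9, Cd79 or C1q limits, so their set is not chosen like the members. Since globin takes a share that the rule fixes, levels are given as summed UMIs per 1000000 non-globin UMIs (CPM). At this depth 3 UMIs over all members, the floor for a count of 0, equal 1.44 CPM. The members' globin share ran from 0.0335% to 19.6% (median 4.11%), against a median of 0.188% in 4928 B cells (at least 5 UMIs of Cd79a and Cd79b), which should lack it.

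The label held against its markers, though unevenly. Klf1 (an erythroid Krüppel-like factor) had 1, 4 and 28 UMIs in the lowest, median and highest member, and Gata1 had 0, 2 and 15, as the rule set. The rule did not use Car1, carbonic anhydrase 1, which had a UMI in 107 of the 115 members and 0, 10 and 124 UMIs in the lowest, median and highest. Kit had a UMI in 21 members and was at 0 in the other 94, and all 21 also had Klf1, Gata1 and Car1. After thinning every cell to 1000 UMIs, Car1 was seen in 51.3% of members against 0.406% of B cells, and Kit in 1.74% against 0.629%. Unthinned, these shares were 93.0% against 1.34% and 18.3% against 3.77%, at median depths of 16040 and 3176 UMIs.

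The limits of the rule pass through a continuum. There were 21 members with exactly 3 UMIs of Klf1 and Gata1 and 14 with 4, and 23 further barcodes met every other limit with 2. The highest globin shares among members were 19.6% and 19.4%, and the lowest among erythroblasts were 20.1% and 20.8%, with 18 members above 15% and 15 erythroblasts under 25%.

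Across the erythroid series, a few genes had their highest level in early erythroid cells. In progenitors, members, erythroblasts and late barcodes, Car1 had 76.9, 937, 257 and 17.9 CPM. It was highest in the members, 3.65-fold higher (95% counting interval 3.24 to 4.12) than in erythroblasts and 12.2-fold higher than in progenitors. Its neighbour on chromosome 3, Car2 (chr3:14886269-14900770, against chr3:14766214-14808365 for Car1), was higher in erythroblasts than in members, at 189.8, 3737, 9300.4 and 10458 CPM. Its last step holds per non-globin UMI only. Globin took 43.1% of UMIs in erythroblasts and 86.5% in late barcodes, and per 1000000 of all UMIs Car2 had 189, 3542, 5295 and 1410.3, a scaling added after the data were seen. Tfr2, the second transferrin receptor, which senses iron and pairs with Epor, peaked with Car1, at 19.4, 67.2, 17.8 and 1.37 CPM. The red cell pyruvate kinase gene Pklr did so too, at 0.423, 39.3 and 5.67 CPM in progenitors, members and erythroblasts and 0 UMIs in late barcodes.

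**Figure D1:**
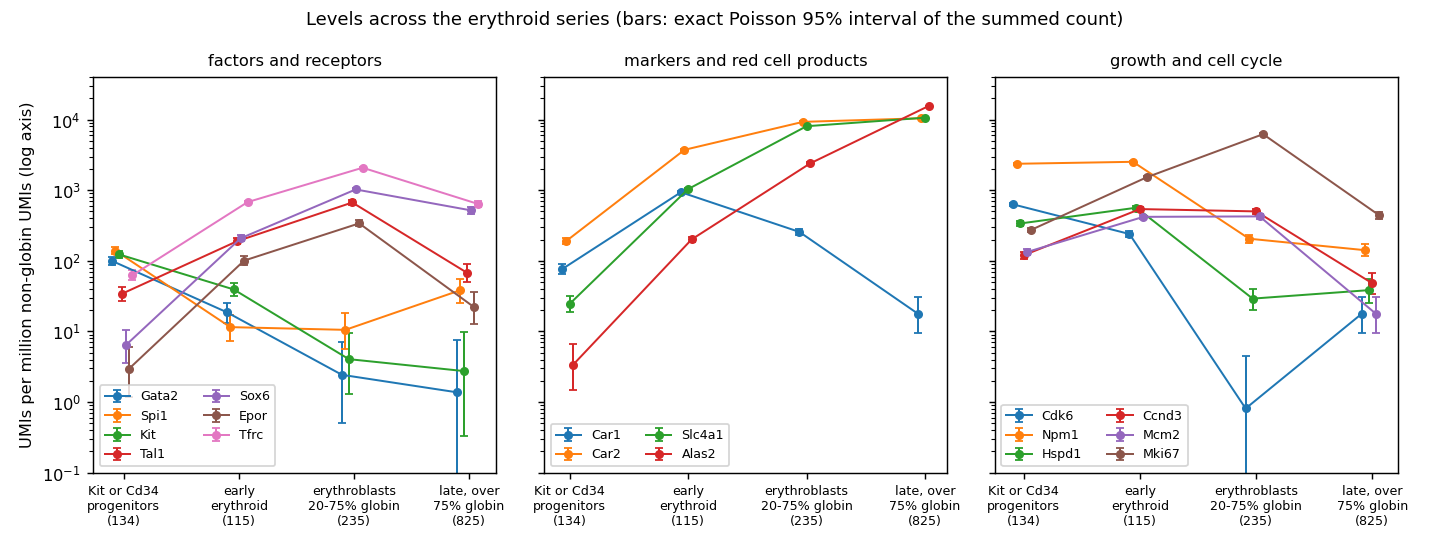
Level in CPM, summed over non-globin UMIs (log axis) of 17 genes in progenitors, early erythroid cells, erythroblasts and late erythroid barcodes, with exact Poisson 95% intervals. Car1 was highest in early erythroid cells at 937 CPM, Cdk6 and Npm1 were far lower in erythroblasts, and Slc4a1 and Alas2 were higher at each step on this scale. Per 1000000 of all UMIs, globin included, Alas2 still was, while Slc4a1 had 24.5, 983, 4594 and 1437.

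Over all genes with at least 20 UMIs over both sets, without the genes that chose the cells, 2734 of 7858 (34.8%) were at least 2-fold higher in members than in erythroblasts and 1172 (14.9%) at least 2-fold lower. The median gene was higher by 0.42 on the log2 scale, and by 1.15 when scaled by all UMIs, which counts 4312 higher (54.9%) and 469 lower (5.97%). Against progenitors, 1258 of 9511 genes (13.2%) were at least 2-fold higher and 2422 (25.5%) at least 2-fold lower, with a median of -0.11. These all-gene shares are the background for the list counts that follow. The progenitors are a mixed set, with transcripts of lymphoid cells (501 UMIs of Dntt) and of mast cells and basophils (217 UMIs of Cpa3). The erythroblast comparison is set in part by the globin limit, and the progenitor one by Klf1 and Gata1.

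Many erythroid transcription factors were higher, and most progenitor factors lower, than in progenitors. Of 18 erythroid factors counted (Klf1 and Gata1 set the rule), 8 were at least 2-fold higher in members than in progenitors and 1 lower, with a list median log2 ratio of 0.73. Against erythroblasts 2 were higher and 9 lower, with a median of -1.05, or -0.31 when scaled by all UMIs. Sox6, which silences embryonic globin, had 6.34, 209 and 1027 CPM in progenitors, members and erythroblasts, and Tal1, a partner of Gata1, had 34.2, 190.0 and 671 CPM. Per non-globin UMI, the repressor Gfi1b was already near its erythroblast level, with 8.03, 131 and 142 CPM in the same order. Globin took 5.23% of all UMIs in members and 43.1% in erythroblasts, so this nearness depends on the scaling. E2f2, a cell cycle factor of erythroblasts, had 33.0, 326 and 1826 CPM.

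Bcl11a, a repressor of fetal and embryonic globin, ran the other way. It had 161 CPM in members, level with the 162 of progenitors, and was 16.5-fold higher (95% counting interval 9.34 to 32.3) than in erythroblasts. The list of progenitor and other-lineage factors was lower than in progenitors for 15 of 19 genes, with none higher and a median of -2.41. It was higher than in erythroblasts for 7 of 14, with 1 lower and a median of 1.53. Gata2 had 100.2, 18.7 and 2.43 CPM in progenitors, members and erythroblasts, Myb had 235, 199 and 16.2 and Spi1, the myeloid factor that opposes Gata1, had 139.9, 11.5 and 10.5. Spi1 was thus 12.2-fold lower in members than in progenitors, a log2 ratio of -3.58. This was -4.52 without the 6 members and 20 progenitors that were rich in myeloid transcripts. The ratio was -5.39 without doublets called by Scrublet and -4.31 with a globin limit of 10%, each applied to both sets. Myb, a factor of cycling progenitors, was uneven among the members, at 366, 61.3 and 98.1 CPM in those under 1%, from 1 to under 5% and from 5 to under 20% globin. Thinned to 1000 UMIs a cell, Myb was in 10.4% of members and 23.9% of progenitors. Meis1, a stem cell homeobox factor, had 6.24 CPM in members and 114 in progenitors. Mecom, another stem cell factor, had 0 UMIs in members, at least 12.6-fold lower than in progenitors at the floor of 3 UMIs over the members.

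Among receptors, Epor had the highest ratio over progenitors. Single members held 0, 1 and 8 UMIs of Epor (lowest, median, highest) and 79 of 115 had at least 1. Its level was 101 CPM in members, 34.0-fold higher (95% counting interval 16.2 to 85.7) than the 2.96 CPM of progenitors and 3.37-fold lower than the 339.5 CPM of erythroblasts. The transferrin receptor Tfrc, the main door for iron, had 679 CPM in members against 62.6 in progenitors and 2085 in erythroblasts. Kit had 39.3 CPM in members, against 124 in progenitors, where it chose the cells, and 4.05 in erythroblasts. The endothelial and progenitor receptor Eng had 31.7 CPM in members and 0.810 in erythroblasts, where only 1 UMI was seen. Cd34 and Flt3, receptors of multipotent cells, were nearly absent, with 4 and 2 UMIs over all members. In the whole list of 25 receptors and adhesion genes, 7 of 22 were higher and 10 lower than in progenitors, against 13.2% and 25.5% of all genes. Compared with erythroblasts, 5 of 15 were higher and 6 lower, against 34.8% and 14.9% of all genes, so the 5 of 15 is near the all-gene share.

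The mixed list of erythropoietin signalling, stress and cell cycle inhibitor genes did not move as a block. Against erythroblasts 2 of 13 were higher and 6 lower, where all genes had 34.8% and 14.9%. Against progenitors 3 of 17 were higher and 8 lower, where all genes had 13.2% and 25.5%. The signal transducer Stat5a was 45.6-fold higher (95% counting interval 7.94 to 1824) in members (36.9 CPM) than in erythroblasts (0.810 CPM, 1 UMI), while the survival gene Bcl2l1 was 9.57-fold lower (12.95 against 124 CPM). Sphk1, a sphingosine kinase that red cells use to make sphingosine 1-phosphate, had 83.5 CPM in members and 1.69 in progenitors, 49.4-fold higher. The feedback inhibitor Socs3 had 0 UMIs in members and 220 in progenitors, at least 64.6-fold lower, and the erythroferrone gene Erfe had 3 UMIs in members.

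Haem synthesis genes, summed over all members, stood far above progenitors. Within the members they rose with globin: 16 of 19 were at least 2-fold higher from 5 to under 20% than under 1%. Compared with progenitors, 16 of 20 genes of the pathway were at least 2-fold higher and 0 lower, with a median log2 ratio of 3.64. Compared with erythroblasts 2 were higher and 14 lower, with a median of -1.39 (or -0.66 and 8 lower when scaled by all UMIs). The entry enzyme Alas2 lagged most: it had 3.38, 201, 2395 and 15563 CPM in progenitors, members, erythroblasts and late barcodes. It was 11.9-fold lower in members than in erythroblasts, and only 3 of the 35 members under 1% globin had a UMI of it. The later enzyme Cpox stood closer, at 945 CPM in members against 2304 in erythroblasts. Tmem14c, which carries haem precursors across the inner mitochondrial membrane, was already at 1279 CPM in members, against 1349.9 in erythroblasts and 159 in progenitors. Its nearness to erythroblasts depends on scaling by non-globin UMIs. The housekeeping form Alas1 was higher in members than in erythroblasts, at 16.8 against 4.86 CPM.

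Iron genes were split. 12 of 20 were higher than in progenitors and 1 lower, against 13.2% and 25.5% of all genes. Against erythroblasts 2 were higher and 6 lower, where all genes had 34.8% and 14.9%. The median there, -0.33, turned to 0.40 with scaling by all UMIs. Slc25a37, the mitochondrial iron importer mitoferrin 1, was the lowest of the list against erythroblasts, with 482 against 4309 CPM. Aco1, an iron-sensing RNA-binding protein, was the highest of those counted, with 33.1 CPM in members against 5.67 in erythroblasts. The ferritin heavy chain gene Fth1 had 2200.1, 6201 and 9973 CPM in progenitors, members and erythroblasts, though Fth1 and Ftl1 have near-identical pseudogenes, so their counts are uncertain.

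Most membrane skeleton genes were higher in members than in progenitors. There 20 of 22 genes were at least 2-fold higher than in progenitors and 1 lower (Slc2a1), with a median log2 ratio of 5.53. Against erythroblasts 0 were higher and 20 of 21 lower, with a median of -2.06, or 13 lower and -1.32 with scaling by all UMIs. The beta adducin gene Add2 had 393 UMIs in members and 2 in progenitors, a ratio of 223 (interval 61.3 to 1848). Band 3, Slc4a1, the anion exchanger, had 24.5, 1037 and 8069.6 CPM in progenitors, members and erythroblasts. Blood group genes such as Ermap (572 against 1480.4 CPM in erythroblasts) and the claudin Cldn13 (318 against 649.8) were nearer to their erythroblast level than Dmtn, the dematin gene (128 against 989), or Tmod1, a tropomodulin (55.7 against 603).

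Of the cytosolic red cell enzymes, 13 of 18 were higher than in progenitors and 1 lower, against 13.2% and 25.5% of all genes. Compared with erythroblasts, 4 were higher and 10 lower, against 34.8% and 14.9% of all genes. Pklr, Pgam1 and Car1 were those with the largest excess over erythroblasts, and Pgam1, a glycolytic mutase, was also 8.22-fold lower than in progenitors (30.2 against 249 CPM). Bpgm, which makes the haemoglobin regulator 2,3-bisphosphoglycerate, was still low, at 49.4 CPM in members and 224 in erythroblasts. Of the terminal maturation genes, 20 of 22 were lower than in erythroblasts and 1 higher, with a median of -2.01. Xpo7, an exportin tied to nuclear condensation in mouse erythroblasts, had 53.3, 12.95 and 271 CPM in progenitors, members and erythroblasts, so it was lowest in the members. Against progenitors 13 of 21 of these genes were higher and 1 lower, and Hemgn had 875 against 12.3 CPM.

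**Figure D2:**
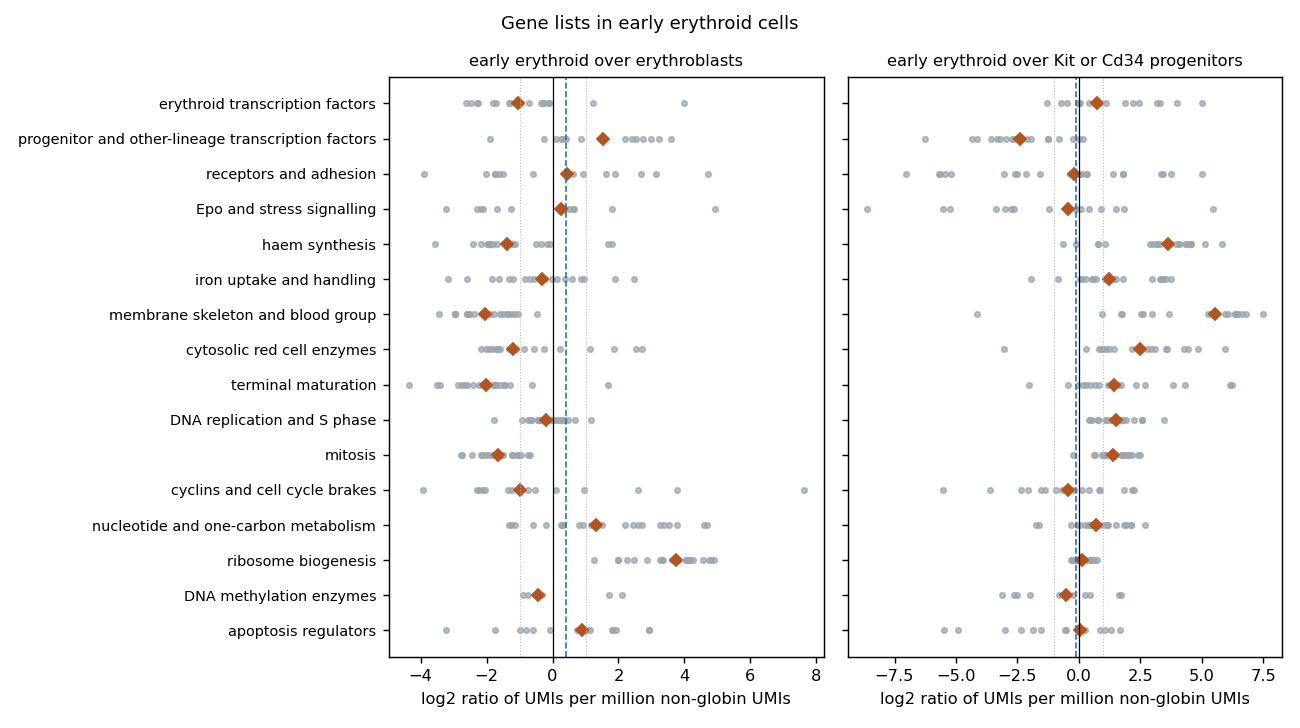
Log2 ratio of CPM for each gene (grey points) and the list median (diamonds), early erythroid cells over erythroblasts on the left and over progenitors on the right. The dashed line is the median of all genes (0.42 and -0.11), and dotted lines mark 2-fold. Ribosome biogenesis lay furthest right against erythroblasts, at 3.76, and of the 16 lists drawn the membrane skeleton lay furthest right against progenitors, at 5.53.

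All 22 genes of the ribosome biogenesis list were at least 2-fold higher in members than in erythroblasts, with a median log2 ratio of 3.76, and none of 22 differed by 2-fold from progenitors (median 0.14, or -0.02 with each cell weighted equally). Npm1, a nucleolar chaperone, had 2371, 2527 and 206 CPM in progenitors, members and erythroblasts. The mitochondrial chaperone gene Hspd1, kept in this list, had 338, 566 and 29.2 CPM, and the U3 small nucleolar RNP protein Rrp9 had 68 UMIs in members and 1 in erythroblasts. Ribosomal protein genes took 28.2% of non-globin UMIs in progenitors, 27.5% in members and 10.4% in erythroblasts. Of the nucleotide and one-carbon enzymes, 12 of 22 were higher and 3 lower than in erythroblasts, against 34.8% and 14.9% of all genes. Atic, an enzyme of purine synthesis, led them at 108 against 4.05 CPM. Rrm2 and Tk1 of deoxynucleotide supply were among the lower ones, at 527 against 1258 and 199 against 493 CPM. Npm1, Hspd1, Hspe1 and Nme1 with Nme2 have close copies or overlapping genes, so their counts are uncertain.

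Members were strongly loaded with replication transcripts, and their mitosis genes had not reached the erythroblast level. Of 25 replication and S phase genes, 20 were at least 2-fold higher than in progenitors and none lower. Against erythroblasts 1 was higher and 1 lower, and the median of -0.21 became 0.53 with scaling by all UMIs and 0.11 with each cell weighted equally. Of 25 mitosis genes, 20 were higher than in progenitors with none lower, and 22 were lower than in erythroblasts with none higher (9 lower with scaling by all UMIs). The summed S phase list had a per-cell median of 1418 CPM in progenitors, 7832 in members and 6630.0 in erythroblasts. The summed mitosis list had 934, 7758 and 24727 CPM in the same order. No member was at 0 for either list. Mki67, the proliferation marker Ki-67, had 0, 26 and 119 UMIs in the lowest, median and highest member, and its summed level was 273, 1529 and 6227 CPM in progenitors, members and erythroblasts.

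**Figure D3:**
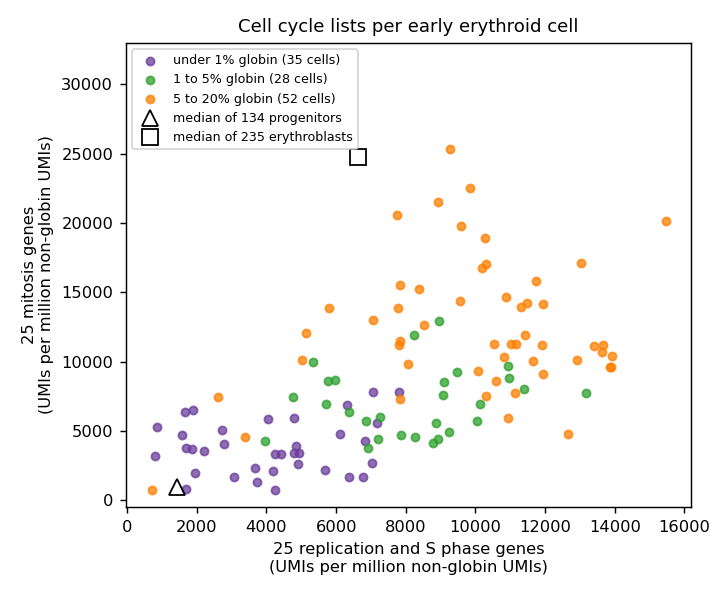
Summed level of 25 mitosis genes against that of 25 replication and S phase genes in each of the 115 early erythroid cells, coloured by adult globin share, in CPM. Open symbols are the medians of progenitors and erythroblasts. The median of the members on the mitosis axis was 7758 CPM, against 24727 in erythroblasts.

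The cyclin list held the gene with the highest ratio over erythroblasts among all genes with at least 100 UMIs. Cdk6, a kinase partner of D-type cyclins, had 500 UMIs in members and 1 in erythroblasts, a ratio of 296 (interval 52.9 to 11716), and 239.9 CPM in members against 629.9 in progenitors. Cdk4, its sister kinase, had 220.3, 194 and 13.8 CPM in progenitors, members and erythroblasts. Ccnd3, the D-type cyclin of erythroblasts, had 120.1, 541 and 502 CPM, and Ccnd2, the progenitor one, had 328, 26.9 and 4.05. Of the inhibitors, Cdkn1a (p21) was 47.6-fold lower than in progenitors (5.76 against 274 CPM). The inhibitor Cdkn2d (p19) was 15.2-fold lower than in erythroblasts (46.5 against 707 CPM). Members thus had the lowest Cdkn2d of these 3 sets (75.3 CPM in progenitors).

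Of the apoptosis regulators, 7 of 14 were higher and 3 lower than in erythroblasts, against 34.8% and 14.9% of all genes. Against progenitors 3 of 17 were higher and 6 lower, with a median log2 ratio of 0.06. Bcl2 had 5 UMIs in members (2.40 against 119 CPM in progenitors), and Bcl2l11 (Bim), a death-promoting relative, was 7.96-fold lower than in progenitors. Of the DNA methylation genes, Dnmt1 and Uhrf1, which copy methylation at replication, had 281 and 329 CPM in members and 353 and 554 in erythroblasts. The new-methylation enzyme Dnmt3a had 8.64 CPM in members against 49.9 in progenitors. In that list 2 of 10 genes were higher and 4 lower than in progenitors, against 13.2% and 25.5% of all genes.

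Across all genes with at least 100 UMIs, the 10 with the largest excess over erythroblasts were Cdk6, Phgdh, Srm, Lap3, Atad3a, Ppp1r14b, Polr2h, Ddx10, Epb41l4aos and C1qbp. Phgdh opens serine synthesis and had 155 UMIs in members and 1 in erythroblasts. Srm makes the polyamine spermidine, and C1qbp, a mitochondrial matrix protein, was 31.8-fold higher (interval 18.5 to 60.1). Those lowest against erythroblasts were Ighg2c, Rsad2, Fam214b, Slfn14, Sowaha, Xpo7, Tmcc2, Fam46c, Cdkn2d and Cd36. Ighg2c, an antibody heavy chain, rests on 1 erythroblast barcode with 216 of the 219 UMIs. Rsad2, the antiviral protein viperin, had 38 UMIs in members and 670 in erythroblasts, spread over 113 of 235 barcodes.

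Against progenitors the 10 highest included Tmem56, Asb17os, Add2, Cited4, Smim1, Rhd, Nxpe2, Col5a1 and Atp7b. Tmem56 had 237 UMIs in members and 0 in progenitors, at least 89.6-fold higher at the floor of 3 UMIs over the progenitors, and Smim1, which underlies the Vel blood group in humans, had 494 UMIs against 5. The copper transporter gene Atp7b had 121 UMIs against 1. The 10 lowest were Dntt, Adgrl4, Socs3, Cpa3, Gzmb, Ms4a2, Pde10a, Serpina3g, Il12a and Myct1. Dntt, the terminal transferase of lymphoid progenitors, had 0 UMIs in members and 501 in progenitors, at least 147-fold lower. Cpa3, Gzmb and Ms4a2, of mast cells and basophils, were also at 0 in members. Against the remaining 11865 barcodes of the library, 2001 of 13757 genes (14.5%) were at least 2-fold higher and 5132 (37.3%) lower. Atp7b was 57.0-fold higher there, Pklr 56.3-fold, Car1 40.8-fold and the metallothionein Mt2 38.6-fold. Of the lists, 24 of 25 S phase genes, 17 of 22 ribosome biogenesis genes, 16 of 22 membrane genes and 14 of 20 haem genes were at least 2-fold higher than in the rest.

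Among themselves the members formed a graded series along their globin share, a measure the rule used, so what follows is a description. There were 35 members under 1% globin, 28 from 1 to under 5% and 52 from 5 to under 20%, with median depths of 24876, 17931 and 13826 UMIs. Between the last and the first bin, 1057 of 6691 genes (15.8%) were at least 2-fold higher and 1255 (18.8%) lower, with a median log2 ratio of -0.11. In the lowest bin Slc4a1 had 0 UMIs in 29 of 35 cells and never more than 1. In the middle bin it had 0, 12.5 and 38 UMIs (lowest, median, highest) and in the top bin 1, 34.5 and 86. Its level ran 7.02, 749.6 and 2456 CPM through the 3 bins, and Alas2 ran 3.51, 73.2 and 524. The lowest bin overlapped the middle bin at 0 and 1 UMI and the top bin at 1, and the middle and top bins overlapped from 1 to 38 UMIs.

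Some erythroid genes were already detected under 1% globin. Car2 had 2733, 3871 and 4831 CPM through the 3 bins, Epor 80.7, 101 and 124 and the rhesus gene Rhag 139, 352 and 455. The 35 cells under 1% globin, the deepest bin, had Car1 in 35 of 35, Car2 in 35 of 35 and Hemgn in 28. Slc4a1 was in 6 and Alas2 in 3, and Alas2 lay at the floor of that bin, 3.51 CPM. B cells, which are shallower, had a UMI of Slc4a1 in 6.57% and of Alas2 in 3.37%, unthinned. The median globin share of the bin, 0.113%, was under the 0.188% of B cells. Slc4a1 and Alas2 in this bin are thus not set apart from background. Sox6 came with Slc4a1, at 11.7, 176 and 464 CPM, with a UMI in 5 of 35, 22 of 28 and 47 of 52 cells. Ccnd3 and E2f2 did likewise, at 120.4, 682 and 939.7 and 37.4, 322 and 669 CPM. Of the haem list 16 of 19 genes were at least 2-fold higher in the top bin than in the lowest and 0 lower, and of the membrane list 19 of 21 were higher and 0 lower.

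Growth genes declined along the same series. Of the ribosome biogenesis list 21 of 22 were at least 2-fold lower in the top bin and none higher, with a median log2 ratio of -1.96. Npm1 had 4477, 1439.9 and 983 CPM and Hspd1 1015, 374 and 170.0. Cdk6 had 437, 101 and 104 CPM with a median of 7, 1 and 0 UMIs per cell and a highest value of 37, 13 and 40. In the top bin 43 of 52 cells had 0 UMIs of Cdk6. The highest there had 40, 17 and 11, so the top-bin level of Cdk6 rests mainly on these cells. The same cells were highest in that bin for Npm1, with 248, 100 and 34 UMIs. Myb had 366, 61.3 and 98.1 CPM. Car1 declined as well, at 1193, 843 and 702 CPM. The S phase list had 17 of 25 genes higher and the mitosis list 20 of 25, with none lower in either, and Mki67 had 619, 1446 and 2664 CPM. Mcm2, a subunit of the replicative helicase, levelled off after the lowest bin, at 235, 542 and 553 CPM, where Mki67 did not.

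**Figure D4:**
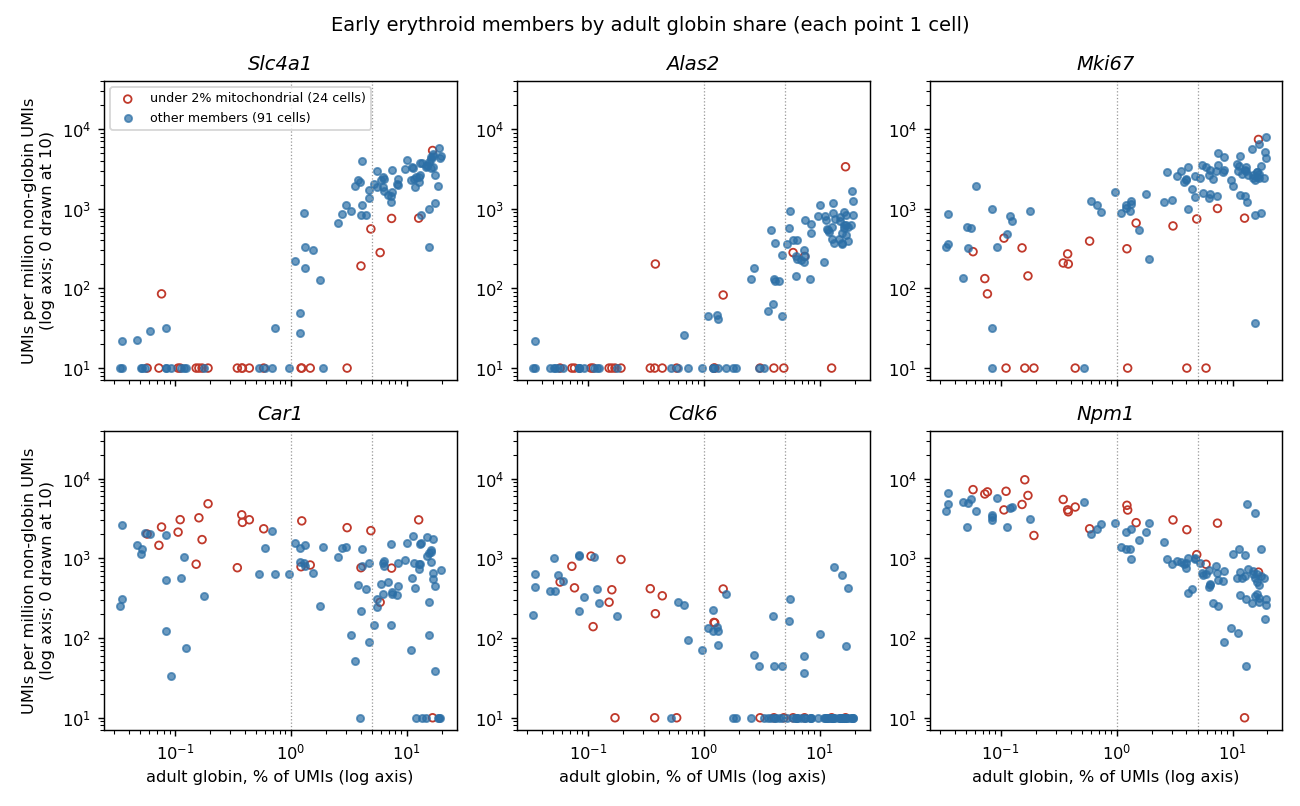
CPM (log axis, 0 drawn at 10) of 6 genes in each of the 115 early erythroid cells against the share of adult globin (log axis), with dotted lines at 1 and 5%. Open red circles are the 24 cells under 2% mitochondrial UMIs. Slc4a1 and Alas2 were seen in 6 and 3 of 35 cells under 1% globin, Cdk6 and Npm1 decline, and Car1 is found at every globin share.

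The 21 members with a Kit UMI sat mainly at the low end, with 15 of them under 1% globin, a median globin share of 0.0843% against 5.35% in the other 94, and a median depth of 32234 against 14583 UMIs. Kit is sparse, and thinning to 1000 UMIs left it in 2 members, too few to describe. Unthinned, Gata2 had 53.4 against 1.44 CPM in members with and without Kit, Myb 469 against 64.7, Cdk6 527 against 97.0 and the interferon gamma receptor gene Ifngr1 267 against 27.3. Bcl11a had 271 against 106 CPM. Slc4a1 had 173 against 1467 and Mki67 631 against 1976 CPM, lower where Kit was seen. Gata2 was in 15 members, 13 of which also had Kit. The myeloperoxidase gene Mpo stood at 479 against 7.18 CPM, but without 6 members rich in myeloid RNA it was 3.47 against 6.02, while Gata2 stayed at 60.7 against 1.51 and Myb at 513 against 65.5. Depth and globin share differ between these cells, and their part in the result was not tested.

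A set of 24 members stood apart in their mitochondrial RNA. They had 0.0347% to 1.95% mitochondrial UMIs of all non-globin UMIs (median 0.421%), against 3.37% to 13.8% in the other 91 (median 6.81%), with no member between. None of the 134 progenitors, 10 of the 235 erythroblasts, 14 of the 825 late barcodes and 8 of the 4928 B cells were under 2%. Of all 11865 other barcodes past the depth limits, 1715 (14.5%) were, so a low share is not particular to members. The 24 cells were also low in RNAs that stay in the nucleus. Malat1, a nuclear long noncoding RNA, had 42 UMIs over the 24 cells, with 0, 1 and 15 in the lowest, median and highest, against 0, 77 and 422 in the other 91. The ranges overlapped, with 82 of the 91 others at or under the highest CPM of the 24, though 22 of the 24 had at most 5 UMIs. Its summed level was 247 against 4638 CPM. Xist, which coats the inactive X chromosome, had 41.1 against 1386 CPM, and Neat1, the scaffold of nuclear paraspeckles, had 23.5 against 244. The 10 erythroblasts under 2%, with 46 more at 2 to under 3%, had 20526 CPM of Malat1 against 14788 in the other 225.

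The 24 cells were shallower, with 1034, 5210 and 24876 UMIs in the lowest, median and highest, against 3391, 18879 and 80413, and 14 of them had under 1% globin. Of the erythroid carbonic anhydrases, which the rule did not use, Car1 was at 1627 against 876 CPM and Car2 at 4183 against 3698. Against the other members they had less Tfrc (117 against 729 CPM) and Mki67 (335 against 1636), and more Sphk1 (211 against 72.1). Within the bin under 1% globin, 14 such cells against 21 others gave Malat1 at 155 against 3785 CPM, Xist at 17.2 against 1403, Car1 at 1805 against 1096, Npm1 at 5723 against 4281 and Mki67 at 206 against 683. The set was seen in the data and is not a group of the study. Without these cells 91 members remained, and Slc4a1 through the 3 globin bins ran 6.77, 812 and 2473 CPM. The part of depth in this was not tested.

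**Figure D5:**
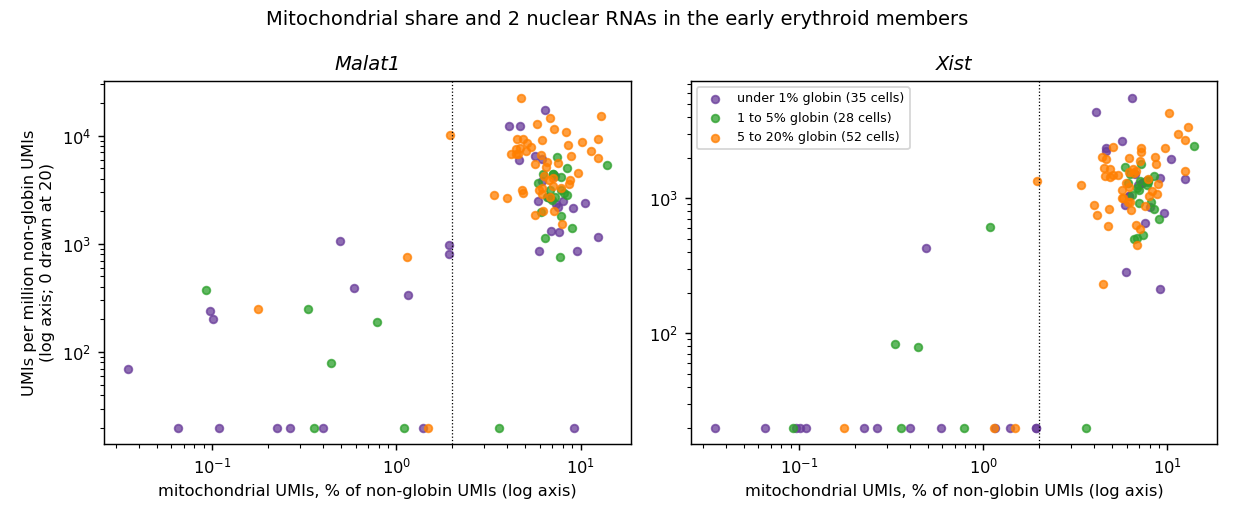
CPM of Malat1 and Xist (log axis, 0 drawn at 20) against mitochondrial UMIs as a percentage of non-globin UMIs (log axis) in the 115 early erythroid cells, coloured by globin share. The 24 cells left of the dotted line at 2% are separated by a gap from the other 91, and Malat1 and Xist were at 0 in 9 and 19 of them.

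Transcripts of myeloid cells were concentrated in a few members. Mpo, Elane, Prtn3 and Ctsg summed to 1391 UMIs, of which 1349 were in 2 members, and 86 members had 0. S100a8 and S100a9 summed to 4363 UMIs, of which 3651 were in 5 members, with a median of 6 per cell. In all, 6 members had at least 200 UMIs of this S100 pair or at least 100 of the azurophil genes. Without those 6, Mpo was at 5.25 CPM. The whole neutrophil list of 10 genes, none at 0, summed to 3197 CPM in members, where the rule itself limited S100a8 and S100a9. The 10 granulocyte and monocyte progenitor genes summed to 1091 CPM in members. Of the 10 mast cell and basophil markers 7 were at 0 in members. Of 12 megakaryocyte markers, 4 were at 0, among them Gp1bb, Gp6 and Itgb3, and Pf4 had 4 UMIs and Itga2b 14. Of 11 B cell markers 2 were at 0 (Ms4a1 and Igll1), of 9 T and NK cell markers 3, of 10 macrophage markers 2 and of 8 stromal and bone markers 1 (Col3a1). These summed to 117, 32.6, 63.3 and 65.7 CPM in members. The part of these transcripts in the results was not tested beyond leaving out barcodes past these limits of 200 or 100 UMIs. Left out were the 6 members and, in comparisons with the other sets, also 20 progenitors and 3 erythroblasts. The Scrublet caller marked 6 of 115 members as doublets, and these were kept.

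The mouse genes tied to the genotype, and the parathyroid hormone receptor gene, were not detected in these cells. The tdTomato reporter was nearly absent. Irx3, Irx5, Col10a1 and the parathyroid hormone receptor gene Pth1r each had 0 UMIs over the 115 members, which allows up to 1.44 CPM. The tdTomato sequence had 1 UMI in members and 18 in B cells (0.455 and 0.621 per 1000000 of all UMIs), and Cre and EGFP had 0 in members. The vector element WPRE, counted alongside tdTomato, had 39 UMIs in 24 members, and what gave them was not tested. Xist had 2661 UMIs over all members, and Ddx3y, Eif2s3y, Kdm5d and Uty of the Y chromosome had 0.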

How the data were processed

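The values are raw UMI counts per gene and cell barcode, which the authors produced using Cell Ranger (version 3.1.0 in the header lines, per the file headers). Seurat 3 and mm10 appear in the submitters' processing notes with no role, and aligner settings are not given in the sources used here. A second deposited count matrix holds added sequences such as tdTomato. The 4 records share 1 matrix and cannot be told apart, so they are 1 library with no replicate and no test.

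The members and gene lists were chosen with earlier results of these data known. Summed UMIs per 1000000 non-globin UMIs (CPM) were compared as ratios over genes with at least 20 UMIs over both sets, and a gene was called at 2-fold. The genes that chose the cells and mitochondrial genes were left out. Log2 ratios have 0.5 UMIs added to each side. Exact 95% intervals (Poisson, Clopper-Pearson or conditional binomial) and the floor of 3 UMIs cover counting error only. The comparison was tested on simulated data. Named genes are the 3 highest and 3 lowest of each list, a set of markers, and the 10 highest and lowest of all genes with at least 100 UMIs against erythroblasts and progenitors. Others, such as Malat1, Neat1 and Ifngr1, and those named against the rest, were chosen after their values were seen. Some genes that this rule names are not reported here, though list counts include them. Sec15l1, Ahsp, Tent5c and Hbb-bh0 had no row under these symbols. Hba-a1 with Hba-a2, and Hbb-bs with Hbb-bt, are near-identical, so only their sum was used.

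Doublets were marked with Scrublet (scanpy 1.11.5), 741 of 11980 barcodes, and kept. Start-site windows are from RefSeq GRCm38.p6. Alternatives covered the limits of the rule, scaling, weighting, gene minimum, thinning to 1000 or 2000 UMIs and doublets. Leaving out barcodes rich in myeloid RNA or poor in mitochondrial RNA was added after seeing the data. Python 3.11.15, numpy 2.4.6, scipy 1.17.1 and pandas 2.3.3 were used.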

Additional observations from a re-analysis of the deposited data

Results flagged for a closer look

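A vector element, WPRE, was counted in the second deposited matrix, which the comparisons did not use. It had 39 UMIs in 24 of the 115 early erythroid cells (20.9%), or 17.7 per 1000000 of all UMIs (exact Poisson 95% interval 12.6 to 24.2), above the floor of 3 UMIs. Progenitors had 174 UMIs (73.4 per 1000000), erythroblasts 24 (11.1) and B cells 1305 (45.0), with a UMI in 19.9% of B cells. What gave these UMIs was not tested.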

How the results depend on the processing

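The number of members ran from 80, with at least 5 UMIs of Klf1 and Gata1, to 111, with at least 2000 UMIs per cell. Scaling by all UMIs counted 4312 genes at least 2-fold higher and 469 lower than in erythroblasts. A gene minimum of 100 UMIs counted 1014 higher and 877 lower than in erythroblasts (53.6% of calls higher, against 70.0%), and 808 higher and 1015 lower than in progenitors. A minimum of 1 UMI counted 5522 higher and 2248 lower than in erythroblasts, and 2252 higher and 5330 lower than in progenitors. These minimums change which genes are counted. Of the values recomputed, 36 of 87 moved (a count by over 1.5 times, a ratio beyond its counting interval) with scaling by all UMIs, 29 of 87 with each cell weighted equally and 25 of 88 with a globin limit of 10%, against 0 of 88 with a mitochondrial limit of 10% or at least 2000 UMIs. Leaving out the cells low in mitochondrial RNA moved 6 of 102 and those rich in myeloid RNA 7 of 102, and leaving out Scrublet doublets 4 of 87. Thinning cells to 1000 UMIs moved 7 of 10 ratios of the top over the lowest globin bin, with none changing direction. Ratios with a thinned count of 0 were not formed. Shares of members with a UMI rise with depth. Against 1000 UMIs they moved for 6 of 7 genes at 2000 UMIs and 7 of 7 unthinned. Kit thinned to 1000 UMIs was left in 2 members, so that split gave no usable values. No paired analysis was possible because the 4 records share 1 matrix, and leaving out each record was not possible for the same reason. One library limits everything here to counting error, and sparse genes such as Kit, Gata2 and Spi1 rest on few UMIs per cell.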
